A study of Saccharomyces cerevisiae with 4 samples.

Results

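The nuclear genes of the yeast ATP synthase, of complex III (the bc1 complex), of cytochrome c and of the NADH and lactate dehydrogenases that feed electrons to them were examined by ribosome profiling. Members were chosen by systematic name (YBL099W for ATP1, YPR020W for ATP20, YPR191W for QCR2, YFR033C for QCR6, YMR145C for NDE1 and YML054C for CYB2, for example), and all 31 were found among the 6600 coding sequences of the deposited table. They are 16 genes for subunits and inhibitors of the ATP synthase, 9 for complex III, 2 for cytochrome c and 4 for dehydrogenases. In this assay mRNA is digested and the pieces shielded by ribosomes are sequenced, so a gene's count follows the number of ribosomes on its coding sequence. The study set a wild type (WT) strain of the 74D-694 background against a mutant of the same background in which OAZ1, the antizyme gene, was replaced by an in-frame version, with 2 libraries per strain. All cultures were in mid-exponential phase in synthetic medium and received cycloheximide at 50 µg/mL, which arrests elongating ribosomes. Glass beads broke the cells, and a TruSeq Small RNA kit was used for every library. The labels do not say that replicates were separate cultures, and the p-values below therefore rest on a spread between libraries that may be technical. RNA-seq was not analysed here, and footprint level cannot be divided into mRNA level and translation.

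In yeast mitochondria electrons enter the chain from NADH through single-protein dehydrogenases rather than through a proton-pumping complex I. NDI1 faces the matrix, and NDE1 and NDE2 face the intermembrane space. Ubiquinone carries the electrons to complex III, which passes them to cytochrome c and pumps protons. The ATP synthase lets the protons return and makes ATP in its F1 head, which is held by a peripheral stalk and turned by a central stalk. Both complexes are mosaics: most subunits are encoded in the nucleus and made in the cytosol, while the remaining ones are encoded in mitochondrial DNA. In cells growing on glucose many of these genes are held low, and the HAP2/3/4/5 complex, which binds the sequence CCAAT, activates them when respiration is needed.

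A CCAAT sequence was common before these genes. In windows from 250 bases before to 50 bases after the start codon (RefSeq R64 assembly, the assembly of sacCer3), CCAAT or its reverse complement ATTGG was present for 24 of 31 members, 77.4%, and for 43.8% of the 5897 genes with such a window. The shares were 14 of 16 for the ATP synthase and 7 of 9 for complex III. Neither cytochrome c gene had a match in its window, nor did ATP1, STF1, COR1, CYT1 and NDE2. Upstream of the start codon the members held 36 matches, of which 75% read CCAAT on the gene's own strand, against 47.8% of the matches of all genes. Their median distance from the start codon was 183 bases, against 133 bases for all genes. The sequences below are those around the match farthest from the start codon, for some of the 24 members with a match. They are on the strand of the gene with the match in capitals, shown to let the flanking bases be compared. Among members with a match that are not shown, it reads ATTGG in ATP4, ATP7, ATP15, ATP19 and TIM11. In the rest of those it reads CCAAT. A match is a description of the sequence and not evidence of binding.
ATP3 (chrII:315368-315397, plus strand): cgtgatggagaaCCAATgagcggcgagtaa
ATP5 (chrIV:1058960-1058989, minus strand): caatttcaaacgCCAATtgttaactttgtg
ATP17 (chrIV:1228370-1228399, plus strand): ttacggagagaaCCAATcatatcgaaggat
ATP20 (chrXVI:599689-599718, plus strand): ttcttattcctgATTGGctgaaagaaaata
INH1 (chrIV:134935-134964, plus strand): ttcacaattatgCCAATcaactgtctagtt
QCR2 (chrXVI:919184-919213, plus strand): attcccaacgaaCCAATagaaggcccgccc
QCR7 (chrIV:1496712-1496741, minus strand): atcttgttttgaCCAATcaggagcgacgcg
QCR8 (chrX:106211-106240, plus strand): attttttttaagCCAATgaaaatgaagaaa
QCR9 (chrVII:859666-859695, minus strand): attatacacgacCCAATcaaacgcggggaa
NDE1 (chrXIII:556560-556589, minus strand): tattctggtaaaCCAATtaaagagagaaaa
CYB2 (chrXIII:167479-167508, minus strand): actacgacccgaCCAATaataatgtcatac

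Library totals were 29671498 and 10202557 counts in WT replicates 1 and 2 and 7571371 and 2826895 counts in mutant replicates 1 and 2. OAZ1, the exchanged gene, had 12.7 and 10.7 CPM in the WT pair and 20.5 and 18.1 CPM in the mutant pair. CPM is the count scaled to a library total of 1000000 after TMM normalization, which corrects for composition. The OAZ1 log2 fold change was 0.73 (SE 0.22, adjusted p = 0.755, edgeR's quasi-likelihood test). WT replicate 1 differed most from the rest: over the 4603 genes averaging at least 100 counts, log2 differences had an SD of 0.509 between the WT libraries, 0.297 between the mutant libraries and 0.223 between WT replicate 2 and mutant replicate 1. Medians and counts over all members, the ATP synthase and complex III are therefore given with and without WT replicate 1. Values without it are also given for many single members. The plot of log2 fold changes with each library left out shows every tested member.

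The 31 genes together took 0.902% and 0.942% of all counts in the WT libraries (replicate 1, then 2, as in every pair below) and 0.986% and 0.967% in the mutant ones. The ATP synthase genes held 0.411% and 0.461% in WT against 0.486% and 0.502% in mutant, so the WT libraries lay below the mutant ones. Complex III held 0.276%, 0.305%, 0.338% and 0.321%, again with both WT libraries lowest. The dehydrogenases held 0.131% in WT replicate 1 and 0.0686%, 0.0666% and 0.0545% in the other libraries, so 1 library stood above the rest.

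**Figure D1:**
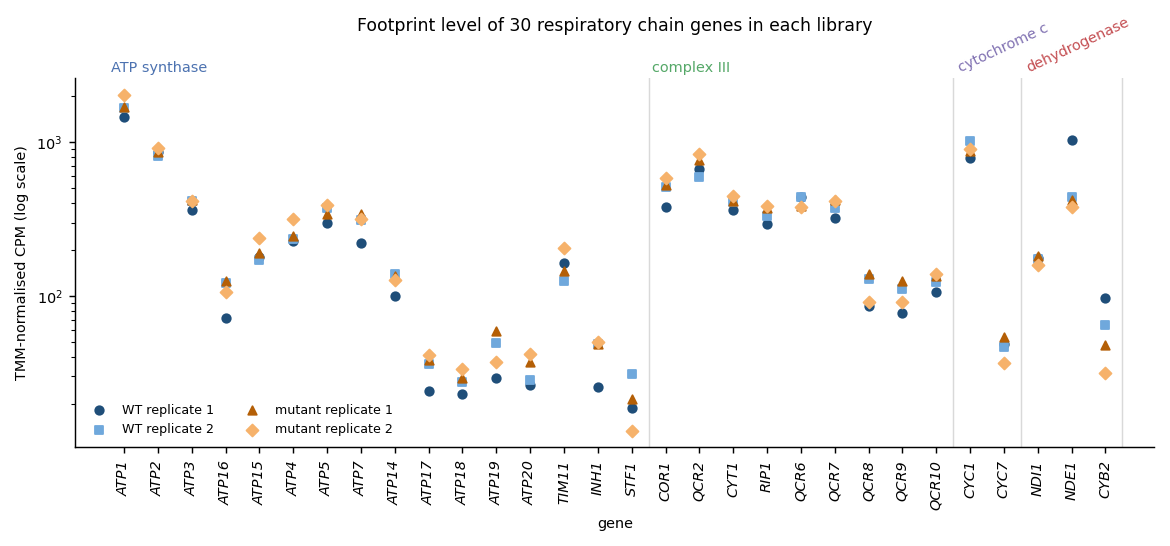
TMM-normalised CPM (log scale) of 30 members in each library, with 1 point per library and genes grouped by complex. NDE2, which had no count in mutant replicate 2, is left out; NDE1 and CYB2 are highest in WT replicate 1, while INH1, ATP16 and ATP17 are lowest there.

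At an adjusted p of 0.05 edgeR's quasi-likelihood test called 0 of the 30 members tested higher and 0 lower, and 0 of all 5233 genes (0% called). Their adjusted p ran from 0.755 to 0.992. At an unadjusted p under 0.05 there were 2 members, ATP20 higher and CYB2 lower in mutant, where 5.45% of all genes reached that level (1.72% higher, 3.73% lower). DESeq2 called 0 members too, and 4 genes lower in all (0.0683%). The log2 fold change (mutant minus WT) was above 0 for 23 of the 30, with a median of 0.26, while over all tested genes 48.4% were above 0 and the median was -0.01. Both mutant libraries lay above both WT libraries for 14 members and below them for 3 of the 30, where the same was seen in 19.1% and 17.9% of all genes, or 36.9% for either direction. Without WT replicate 1 the count above 0 was 18 of 30 with a median of 0.04, beside 50.6% of all genes above 0, and again 0 members were called (0.325% of genes were called higher and 0.42% lower). Without WT replicate 2 it was 24 of 31, and 7 members were called higher (ATP7, ATP16, ATP17, ATP19, ATP20, INH1 and COR1) and 2 lower (NDE1 and CYB2), where 4.35% and 14.9% of all genes were called and 51.4% were above 0. Without mutant replicate 1 or 2 it was 21 or 25 of 31, beside 47.4% or 48.1% of all genes, with 0 called. Under DESeq2, library totals only and thinning to the smallest total, 23 members were above 0, beside 48.3%, 45.4% and 48.1% of all genes. The fits without a WT library assume that the remaining one varies as the mutant pair does.

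The F1 part of the ATP synthase holds the catalytic sites. ATP1, the alpha subunit (YBL099W, chromosome II, 37053 to 38690), had 1445 and 1663 CPM in the WT pair and 1682 and 2016 CPM in the mutant pair. Its groups did not overlap, but mutant replicate 1 was close to WT replicate 2. The log2 fold change was 0.25 (95% interval -0.16 to 0.66), or 0.15 without WT replicate 1 and 0.11 without mutant replicate 2. ATP2, the catalytic beta subunit (chromosome X, 647607 to 649142), had 858 and 811 CPM in the WT pair and 864 and 910 CPM in the mutant pair. Its interval, -0.25 to 0.43 around 0.09, was among the narrowest of the members. The alpha and beta subunits alternate around the central stalk in equal number.

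The central stalk is the rotor within F1. ATP3, the gamma subunit that turns inside the head, had 361 and 415 CPM in the WT pair and 419 and 411 CPM in the mutant pair, so the other 3 libraries lay above WT replicate 1. The ATP3 log2 fold change of 0.10 was -0.00 without that library. ATP16, the delta subunit, had 72 and 122 CPM in the WT pair and 126 and 106.5 CPM in the mutant pair. WT replicate 1 was again the low library. From all libraries the log2 fold change was 0.27, and leaving out WT replicate 1 gave -0.06. ATP15, the small epsilon subunit, had 178 and 170.5 CPM in the WT pair and 190.0 and 236 CPM in the mutant pair, with the mutant pair above the WT pair (0.29, 95% interval -0.13 to 0.71, or 0.13 without mutant replicate 2).

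The peripheral stalk keeps the F1 head from turning with the rotor. ATP5, the OSCP subunit that caps the head, had 299 and 371 CPM in the WT pair and 341 and 391 CPM in the mutant pair, and the groups overlapped. ATP7, subunit d, had 219 and 310 CPM in the WT pair and 343 and 314 CPM in the mutant pair. Here the mutant libraries were above both WT libraries, but WT replicate 2 was nearer to them than to WT replicate 1. The ATP7 log2 fold change of 0.31 was 0.08 without WT replicate 1. ATP4, subunit b, which is anchored in the membrane, had 228 and 233 CPM in the WT pair and 246 and 314 CPM in the mutant pair (0.28, SE 0.17, or 0.10 without mutant replicate 2). ATP14, subunit h, had 99.7 and 139.6 CPM in the WT pair and 134 and 127 CPM in the mutant pair, so its groups overlapped.

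Of the small membrane subunits around the FO part, ATP20 had the largest log2 fold change. ATP20 encodes subunit g, which with subunit e holds ATP synthase dimers together and shapes the cristae. It had 785 and 294 counts in WT and 291 and 113 in mutant, or 26.2 and 28.6 CPM in the WT pair and 37.4 and 41.8 CPM in the mutant pair. Both mutant libraries were above both WT libraries, and the WT libraries were close to each other. The log2 fold change was 0.53 (95% interval 0.07 to 0.99, unadjusted p = 0.0311, adjusted p = 0.755, edgeR), and it was 0.45 to 0.61 when any 1 library was left out. TIM11, which encodes subunit e, its partner in the dimer contact, had 165 and 125 CPM in the WT pair and 145 and 206 CPM in the mutant pair. Its groups overlapped, and the log2 fold change of 0.27 was 0.01 without mutant replicate 2, 0.08 without WT replicate 2, 0.48 without WT replicate 1 and 0.51 without mutant replicate 1.

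The remaining membrane subunits were at low counts, as ATP20 was. In mutant replicate 2 ATP17, ATP18 and ATP19 had 111, 90 and 101 counts, beside 113 for ATP20. ATP17, subunit f, had 24.3 and 35.9 CPM in the WT pair and 38.2 and 41.1 CPM in the mutant pair. ATP18, the i/j subunit, had 23.0 and 27.5 CPM in the WT pair and 29.3 and 33.3 CPM in the mutant pair. Both had mutant libraries above WT libraries and intervals that include 0, with log2 fold changes of 0.40 and 0.30, or 0.13 and 0.16 without WT replicate 1. ATP19, subunit k, had 29.5 and 49.4 CPM in the WT pair and 59.4 and 37.4 CPM in the mutant pair, with WT replicate 1 and mutant replicate 2 low. The ATP19 log2 fold change of 0.32 was 0.01 without WT replicate 1 and -0.07 without mutant replicate 1.

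The 2 inhibitor proteins had log2 fold changes of opposite sign, and neither was called. INH1 encodes the protein that blocks ATP hydrolysis by F1 when the proton gradient fails, and STF1 encodes a related protein. Their translated reference sequences were identical at 47.6% of aligned residues, and their coding sequences shared no exact run longer than 8 bases. INH1 had 25.7 and 49.04 CPM in the WT pair and 49.03 and 50.3 CPM in the mutant pair, so 3 libraries were alike and WT replicate 1 was at 0.52 of their mean. The INH1 log2 fold change of 0.42 became 0.01 without WT replicate 1 and 0.95 without WT replicate 2. STF1 had 18.7 and 31.04 CPM in the WT pair and 21.6 and 13.3 CPM in the mutant pair, from 560, 319, 168 and 36 counts. The groups overlapped, since WT replicate 1 lay between the mutant libraries. For STF1 the log2 fold change was -0.46 (95% interval -1.31 to 0.38), -0.74 without WT replicate 1 and -0.01 without WT replicate 2. STF1 was the 1 gene of the 16 ATP synthase genes below 0 with all libraries, and the difference between the inhibitors was not tested.

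As a class, 15 of the 16 ATP synthase genes had a log2 fold change above 0, with a median of 0.28, and 0 were called. Mutant libraries lay above WT libraries for 8 of the 16 and below for 0, beside 19.1% and 17.9% of all genes. Without WT replicate 1, 11 of 16 were above 0 and the median was 0.11. The median deviation of these genes from their own 4-library mean was -0.25 and 0.06 in the WT libraries and 0.08 and 0.21 in the mutant ones (log2). WT replicate 2 and mutant replicate 1 were nearly level, WT replicate 1 was lowest and mutant replicate 2 highest.

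**Figure D2:**
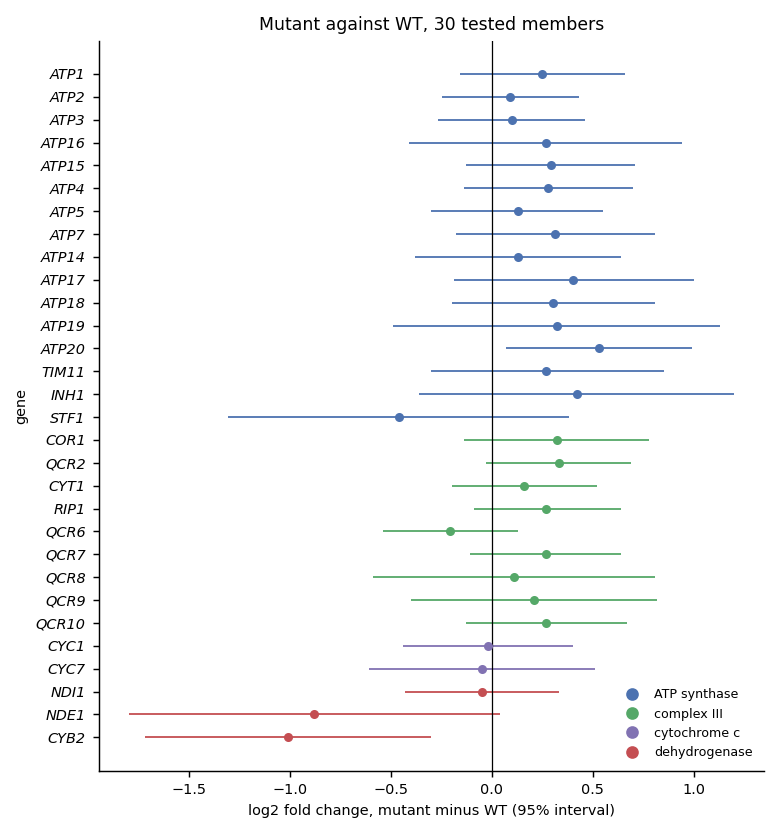
Log2 fold change, mutant minus WT, of the 30 tested members with the 95% interval of edgeR's quasi-likelihood fit, 1 row per gene and 1 colour per class. Most ATP synthase and complex III genes lie between 0 and 0.53, and the intervals of ATP20 and CYB2 exclude 0 before adjustment.

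Complex III is built on a pair of core proteins, COR1 and QCR2, that face the matrix. COR1 (chromosome II, 134143 to 135516) had 380 and 513 CPM in the WT pair and 530 and 583 CPM in the mutant pair. WT replicate 1 was lowest, and the log2 fold change of 0.32 was 0.11 without it. QCR2 (chromosome XVI, 919381 to 920487) had 669.9 and 596 CPM in the WT pair and 765 and 832 CPM in the mutant pair, so WT replicate 1 was not the lowest library here. The QCR2 log2 fold change was 0.33 (95% interval -0.03 to 0.69, unadjusted p = 0.0632, adjusted p = 0.755, edgeR) and 0.25 to 0.42 when any 1 library was left out.

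The catalytic subunits made in the cytosol carry the heme of cytochrome c1 and the iron-sulfur cluster. CYT1, cytochrome c1, had 362 and 409 CPM in the WT pair and 417 and 444 CPM in the mutant pair. RIP1, the Rieske iron-sulfur protein, had 291 and 332 CPM in the WT pair and 371 and 382.5 CPM in the mutant pair. In both genes the mutant pair lay above the WT pair, with log2 fold changes of 0.16 (SE 0.15) and 0.27 (SE 0.15), or 0.07 and 0.18 without WT replicate 1.

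Among the accessory subunits QCR6 had a log2 fold change below 0. QCR6, the acidic hinge protein that lies beside cytochrome c1, had 443 and 440.1 CPM in the WT pair and 386 and 380 CPM in the mutant pair. The libraries agreed within each strain, with an SD of 1.77 in WT and 4.15 in mutant (n = 2 each), and the mutant pair lay below the WT pair. Counting error alone gave mutant replicate 2 a 95% Wilson interval of 342 to 386 CPM as a plain share of the total. An SD from 2 libraries therefore understates the error here. QCR6 had a log2 fold change of -0.21 (95% interval -0.54 to 0.13, adjusted p = 0.773, edgeR), and it stayed between -0.21 and -0.19 when any 1 library was left out. QCR7, which borders cytochrome b, had 319 and 374 CPM in the WT pair and 420.2 and 413 CPM in the mutant pair, the opposite order (0.27, or 0.15 without WT replicate 1).

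Of the 3 smallest accessory subunits, QCR8 and QCR9 varied more between replicates (SE 0.29 and 0.25) than QCR10 (SE 0.16). QCR8, which also contacts cytochrome b, had 85.9 and 129 CPM in the WT pair and 139.6 and 91.0 CPM in the mutant pair. QCR9 had 77.4 and 111 CPM in the WT pair and 124 and 91.8 CPM in the mutant pair. In both genes WT replicate 1 and mutant replicate 2 were low, so neither strain stood apart. QCR10 had 106 and 122 CPM in the WT pair and 135 and 139.5 CPM in the mutant pair, without overlap (0.27, or 0.16 without WT replicate 1).

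QCR9 and QCR10 are the only members with an intron. In QCR9 the first exon holds 3 coding bases and a 213-base intron follows. In QCR10 it holds 6 coding bases before a 63-base intron. Footprints across these junctions span the first codons only, and the sources used here do not say how such reads were aligned. The first coding bases are shown, with the bases of the first exon in capitals.
QCR9 (chrVII:859063-859476, minus strand, spliced): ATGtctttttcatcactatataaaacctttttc
QCR10 (chrVIII:107826-108122, plus strand, spliced): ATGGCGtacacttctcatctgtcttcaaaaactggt

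Of the 9 complex III genes, 8 had a log2 fold change above 0, with a median of 0.27, and 0 were called. Mutant libraries lay above WT libraries for 6 of the 9 and below for 1, beside 19.1% and 17.9% of all genes. Without WT replicate 1 the median was 0.11 and 6 of 9 were above 0. Their median deviation was -0.24 and 0.01 in the WT libraries and 0.11 and 0.13 in the mutant ones (log2), so WT replicate 1 was the library farthest from the others.

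Levels can be compared between genes only per length, so CPM was divided by coding length in kilobases and averaged over the 4 libraries. In the ATP synthase the subunits present in 3 copies did not all stand above those present in 1. ATP1 had 1039 CPM per kilobase, 3.05 times the median of the single-copy subunits, 341 CPM per kilobase. ATP2 had 560 CPM per kilobase, or 1.64 times that median. ATP1 exceeded ATP2 in all 4 libraries, by 1.58 to 2.08 times. ATP15, whose coding sequence has only 189 bases, had 1025 CPM per kilobase, near ATP1.

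The single-copy subunits of the ATP synthase spread over a 10.6-fold range. The peripheral stalk subunits ATP5 and ATP7 had 548 and 565 CPM per kilobase, and ATP4 and ATP14 347.5 and 334. The small membrane subunits ATP20, ATP17, ATP18 and ATP19 had 96.3, 114, 157 and 212 CPM per kilobase and were below the peripheral stalk subunits. In the central stalk ATP3 had 429 CPM per kilobase, but ATP16 had 220.5, close to ATP19. TIM11, also a membrane subunit, had 550 CPM per kilobase. TIM11 exceeded ATP20, its partner in the dimer contact, by 4.66 to 7.51 times in the 4 libraries.

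Complex III, where each subunit is present once per monomer, spread less, over 2.72-fold. COR1 had the lowest density at 365 CPM per kilobase and QCR7 the highest at 994, followed by QCR6 at 928. COR1 was below QCR2 in all 4 libraries, at 0.457 to 0.693 of its density. Coding sequences under 300 bases hold few positions, and their start and stop codons weigh more in a total count; the part of this in the densities was not tested.

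**Figure D3:**
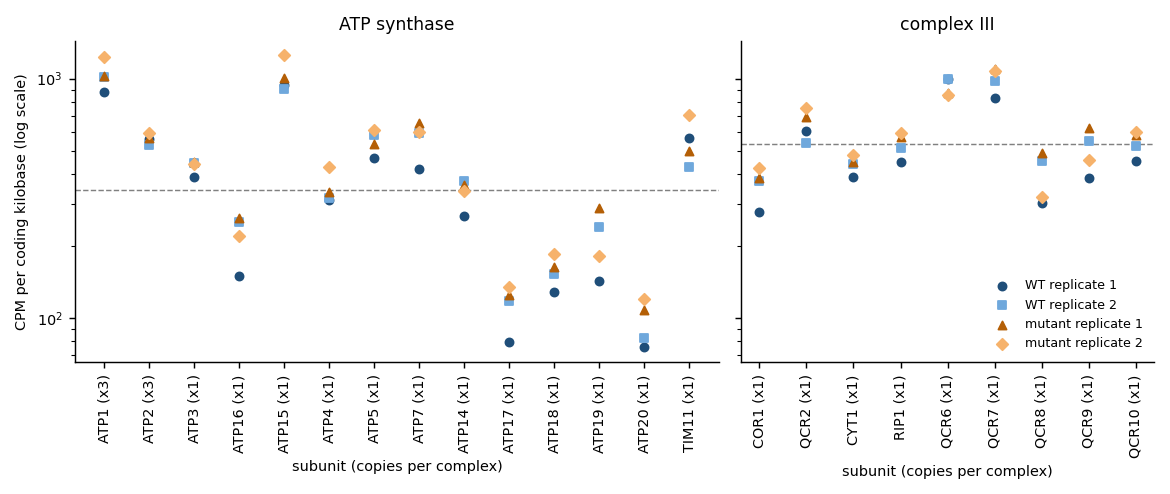
CPM per coding kilobase (log scale) of the subunits of the ATP synthase and of complex III, with 1 point per library, the copies per complex beside each name and the median of the single-copy subunits as a dashed line. ATP1 and ATP15 lie highest in the ATP synthase and ATP20 and ATP17 lowest, while complex III spans a narrower range.

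Of the cytochrome c genes, CYC1 had the highest density of all 31 members and CYC7 a low one. CYC1 encodes iso-1, the main form in aerobic cells, and CYC7 encodes iso-2, a minor form. CYC1 had 783 and 1015 CPM in the WT pair and 872 and 902 CPM in the mutant pair, or 2705 CPM per kilobase. CYC7 had 48.5 and 46.6 CPM in the WT pair and 54.4 and 36.6 CPM in the mutant pair, or 136 CPM per kilobase. In both genes the groups overlapped, with log2 fold changes of -0.02 (95% interval -0.44 to 0.40) and -0.05 (-0.61 to 0.51). CYC1 exceeded CYC7 per kilobase by 16.7 and 22.6 times in WT and by 16.6 and 25.5 times in mutant, so the ratio varied as much within a strain as between them.

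The cytochrome c genes were the only members that share sequence of footprint length with another gene. Their coding sequences were identical at 79.3% of aligned bases, and 2.64% of the 28-base words of CYC1 also occur in CYC7. The longest exact run is 35 bases, shown in capitals with its flanks. Reads inside it could come from either gene, and the sources used here do not say how reads with several matches were counted.
CYC1 (chrX:526548-526606, plus strand): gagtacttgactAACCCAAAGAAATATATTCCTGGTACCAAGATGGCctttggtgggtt
CYC7 (chrV:79694-79752, minus strand): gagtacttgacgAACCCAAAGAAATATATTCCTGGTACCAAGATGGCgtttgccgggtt

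All 3 dehydrogenases tested had log2 fold changes below 0, with a median of -0.88 and 0 called, or -0.14 without WT replicate 1. NDI1, the internal NADH dehydrogenase that oxidizes matrix NADH, had 177 and 175 CPM in the WT pair and 181.5 and 159 CPM in the mutant pair. The groups overlapped, and the log2 fold change was -0.05 (95% interval -0.43 to 0.33). NDE1, the main external NADH dehydrogenase (chromosome XIII, 554793 to 556475, minus strand), had 1029 and 439.9 CPM in the WT pair and 418 and 380 CPM in the mutant pair. WT replicate 1 alone was high, at 2.49 times the mean of the others. The log2 fold change was -0.88 (SE 0.38, adjusted p = 0.755, edgeR) from all libraries, -0.14 without WT replicate 1 and -1.37 without WT replicate 2. Between NDE1 and NDI1 the ratio per kilobase was 5.32 in WT replicate 1 and 2.11 to 2.31 in the other libraries.

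NDE2, the second external NADH dehydrogenase, was close to the limit of detection. It had 40 and 10 counts in WT and 5 and 0 in mutant, or 1.35 CPM (95% Wilson interval 0.990 to 1.84), 0.980 (0.532 to 1.804) and 0.660 (0.282 to 1.55) in the first 3 libraries as plain shares of the total. The count of 0 in mutant replicate 2 allows up to 1.06 CPM by the limit of 3 counts (Wilson upper bound 1.36), and the intervals of the strains overlapped. NDE2 did not pass the filter on low counts. In the edgeR fit without that filter its log2 fold change was -1.37 (unadjusted p = 0.129, adjusted p = 0.782), a value that depends on how the count of 0 is handled. Its coding sequence was identical to NDE1 at 70.9% of aligned bases, with no exact run over 11 bases.

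CYB2 encodes the L-lactate dehydrogenase of the intermembrane space, cytochrome b2, which reduces cytochrome c directly. It had 2891 and 666 counts in WT and 373 and 85 in mutant, or 96.6 and 64.8 CPM in the WT pair and 47.9 and 31.5 CPM in the mutant pair. Both mutant libraries were below both WT libraries, and the libraries also differed within each strain. The CYB2 log2 fold change was -1.01 (SE 0.29, unadjusted p = 0.0131, adjusted p = 0.755, edgeR), the largest in size among the tested members. It was -0.66 without WT replicate 1 (adjusted p = 0.0941, edgeR) and -1.24 without WT replicate 2 (adjusted p = 3.5e-09, edgeR), and -1.35 and -0.75 without mutant replicates 1 and 2. The sign was the same whichever library was left out.

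**Figure D4:**
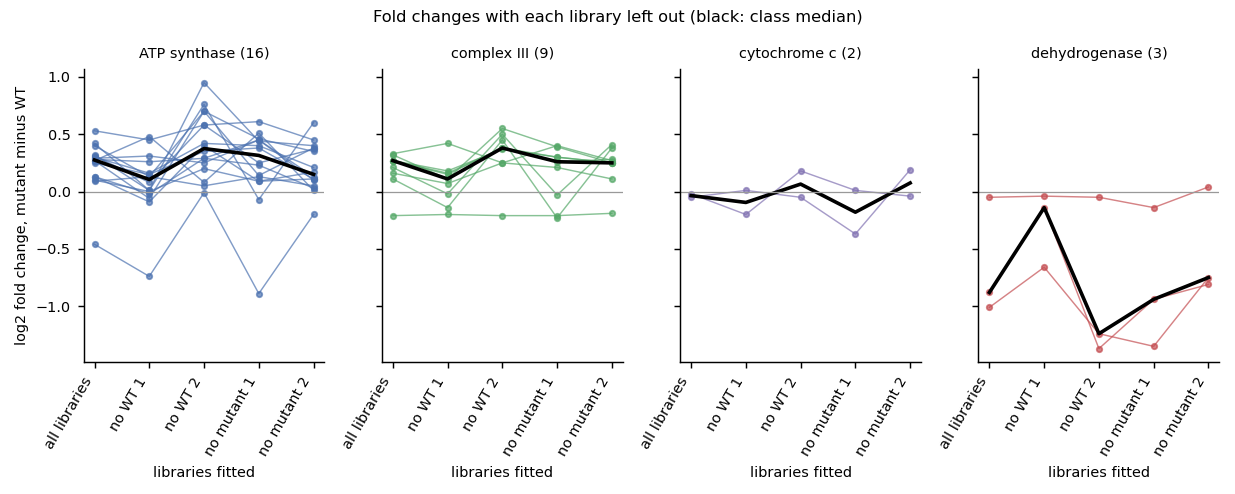
Log2 fold change, mutant minus WT, of each tested member with all libraries and with each library left out, in 1 panel per class, with the class median in black. Without WT replicate 1 the ATP synthase and complex III medians move to 0.11 and NDE1 to -0.14, while CYB2 stays at -0.66.

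The displacement of WT replicate 1 went with coding length. Over 4598 genes averaging at least 100 counts, the log2 level in WT replicate 1 minus the mean of the other libraries had a median of -0.28 for coding sequences under 300 bases and 0.14 for those of 1200 bases or more. The 9 members under 300 bases had a median of -0.38, and the 6 members of 1200 bases or more a median of 0.02, from -0.51 in COR1 to 1.32 in NDE1. As a description across genes of the same libraries, Spearman's rho between coding length and displacement was 0.43 over 30 members, 0.29 without NDE1 and CYB2, and 0.51 over all 4598 genes. NDE1 lay at percentile 94.9 of these genes and CYB2, at 1.07, at percentile 91.6. Genes for proteins with a hydrophobic segment had a median displacement of 0.35, against -0.07 for the others. Among genes without such a segment the median was -0.24 under 300 bases and 0.05 at 1200 bases or more. The 3 members that reached the cutoff for such a segment, ATP4, CYT1 and QCR9, were at -0.20, -0.23 and -0.48. That cutoff, a mean hydropathy of 1.6 over 19 residues, was not reached by NDE1 (1.295) or CYB2 (1.221). Membrane subunits such as ATP19 (1.589) and TIM11 (1.105) also fell short, so the cutoff does not mark every membrane subunit. The part of length or of such segments in the members' differences was not tested.

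**Figure D5:**
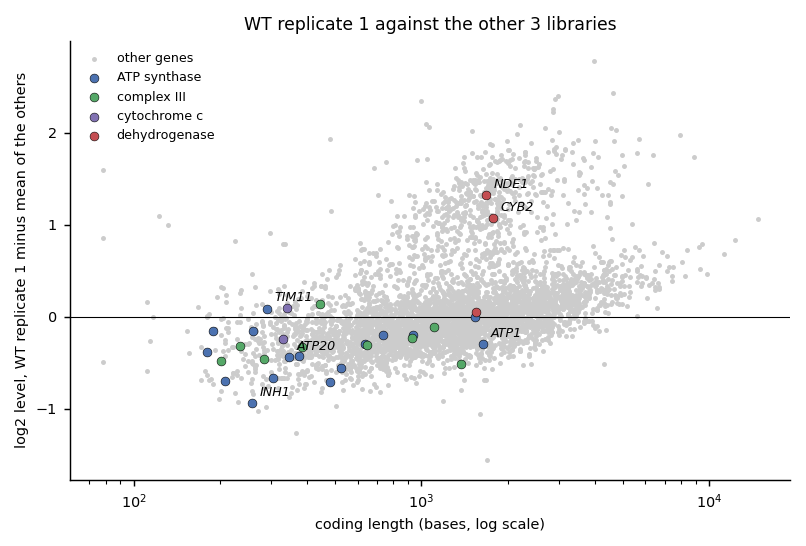
Log2 level in WT replicate 1 minus the mean of the other 3 libraries against coding length (bases, log scale), with 1 point per gene with a mean count of at least 100. Short members lie mostly below 0, with INH1 lowest among them, and NDE1 and CYB2 lie at 1.32 and 1.07.

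Dehydrogenases that were not members were counted as a list. In the list of GUT2, DLD1, DLD2 and DLD3, which pass electrons from glycerol 3-phosphate or lactate to ubiquinone or cytochrome c or are related to those that do, 0 of 4 genes were called and all 4 were below 0, with a median of -0.74, or -0.29 without WT replicate 1. DLD1, the D-lactate dehydrogenase of the inner membrane, had 438 and 182 CPM in the WT pair and 143 and 127 CPM in the mutant pair (-1.20, SE 0.40, adjusted p = 0.755, edgeR), or -0.43 without WT replicate 1. GUT2, the mitochondrial glycerol 3-phosphate dehydrogenase, had 82.1 and 47.4 CPM in the WT pair and 42.7 and 32.6 CPM in the mutant pair (-0.77, or -0.30 without WT replicate 1). DLD2 had 116.9 and 68.88 CPM in the WT pair and 61.35 and 51.79 CPM in the mutant pair (-0.71, or -0.27 without WT replicate 1). In DLD1, GUT2 and DLD2, as in CYB2, WT replicate 1 was highest and mutant replicate 2 lowest. DLD3, a cytosolic enzyme, had 1377 and 1602 CPM in the WT pair and 1416 and 1423 CPM in the mutant pair, and its groups overlapped.

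Nuclear-encoded subunits of cytochrome c oxidase, which takes electrons from cytochrome c to oxygen, had a median of 0.20, with 7 of 10 above 0 and 0 called; the median was 0.12 without WT replicate 1, 0.35 without WT replicate 2 and 0.09 without mutant replicate 1. COX7 had 13.5 and 13.8 CPM in the WT pair and 26.2 and 28.5 CPM in the mutant pair, a log2 fold change of 1.00 (SE 0.20, adjusted p = 0.755, edgeR) that was 0.94 to 1.07 when any 1 library was left out. COX8 had 106 and 140.2 CPM in the WT pair and 184 and 183 CPM in the mutant pair (0.58, or 0.39 without WT replicate 1). Complex II, the succinate dehydrogenase, had all 5 genes above 0, with a median of 0.10 and 0 called. The median was 0.01 without WT replicate 1, 0.32 without WT replicate 2 and 0.18 without mutant replicate 1. Without WT replicate 1 the genes ranged from -0.16 to 0.04, so not all stayed above 0. SDH4 had 45.9 and 70.0 CPM in the WT pair and 66.1 and 75.8 CPM in the mutant pair.

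Factors that assemble the complexes were also counted as lists. Of 13 genes for ATP synthase assembly or for expression of its mitochondrial genes, 3 were above 0 and 10 below, and 0 were called. Their median was -0.14, or -0.18 without WT replicate 1 and -0.01 without WT replicate 2. ATP25 had 43.9 and 25.98 CPM in the WT pair and 23.5 and 22.2 CPM in the mutant pair. Of 13 factors for complex III and cytochrome c, 7 were above 0 and 6 below, with a median of 0.01 (-0.10 to 0.08 with 1 library left out) and 0 called; FMP25 had 26.4 and 13.5 CPM in the WT pair and 11.4 and 12.2 CPM in the mutant pair. Of 11 genes for ubiquinone synthesis 5 were above 0 and 6 below, with a median of -0.00 (-0.17 to -0.02 with 1 library left out) and 0 called, and COQ1, which makes the side chain, had 47.1 and 20.6 CPM in the WT pair and 19.8 and 21.1 CPM in the mutant pair. In these 3 genes WT replicate 1 was the only high library.

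Regulators of respiratory genes were also listed. Of HAP1, HAP2, HAP3, HAP4, HAP5 and ROX1, 1 of 6 was above 0, with a median of -0.25 and 0 called, or -0.38 without WT replicate 1 and -0.07 without WT replicate 2. HAP4, the limiting activator subunit of the CCAAT-binding complex, had 146.5 and 167 CPM in the WT pair and 111 and 105 CPM in the mutant pair, so the mutant pair lay below the WT pair. HAP4 had a log2 fold change of -0.54 (SE 0.16, unadjusted p = 0.0163, adjusted p = 0.755, edgeR), and it ranged from -0.63 to -0.44 when any 1 library was left out. WT replicate 1 was between WT replicate 2 and the mutant libraries.

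The partner subunits encoded in mitochondrial DNA had few counts. How well this assay captures footprints from inside mitochondria was not tested. Their counts and log2 fold changes therefore cannot be read as levels of translation beside those of the nuclear genes. ATP6 had 62 and 8 counts in WT and 7 and 1 in mutant, and ATP8 had 46, 11, 4 and 2. COB, the cytochrome b of complex III, had 150, 19, 10 and 6 counts. OLI1, the ring subunit of the ATP synthase, had 330, 155, 137 and 92 counts, or 11.03 and 15.1 CPM in the WT pair and 17.6 and 34.0 CPM in the mutant pair (0.95, unadjusted p = 0.0382, adjusted p = 0.755, edgeR). For OLI1 the log2 fold change was 1.39 when mutant replicate 1 was dropped and 0.44 when mutant replicate 2 was. The other tested genes were below 0, COB at -1.18, COX2 at -0.93 and COX3 at -0.48, or -0.26, 0.26 and 0.17 without WT replicate 1. Of the 7 such genes listed 4 passed the filter, with 1 above 0 and 0 called. COB and the untested genes had at most 10 counts in each mutant library.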

How the data were processed

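Ribosome-protected fragments were counted in 4 libraries, 2 of WT and 2 of mutant. The deposited table holds raw counts, as whole numbers, for each coding sequence in each library. Bowtie2, DESeq2 and the build sacCer3 are named, without versions, per the submitters' processing notes. The sources used here do not give the counting tool, read-length filter, strand setting or handling of reads with several matches. Data lines have doubled tabs and the header single ones, so names were read onto the filled fields in order, and all values depend on that. The columns named for the in-frame OAZ1 were taken as mutant. Of 6600 rows, 5917 matched the RefSeq R64 annotation, and the others held at most 0.0206% of a library's counts. No pair of replicates agreed within sampling noise (chi-square per degree of freedom 103 in WT and 9.78 in mutant).

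The two-sided quasi-likelihood test of edgeR 4.0.16 (R 4.3.3) was used on TMM-normalized libraries after filterByExpr (minimum count 10, minimum total 15). P-values of the 5233 genes kept were adjusted by Benjamini-Hochberg, with a threshold of 0.05. The SE is the log2 fold change divided by the root of the F statistic. The adjusted p is always over all tested genes. DESeq2 1.42.0 was an alternative. Totals ranged 10.5-fold. The limit behind a count of 0 was set at 3 counts, from 0.101 CPM at the largest total to 1.06 CPM at the smallest. It and the 95% Wilson intervals describe counting error alone, because PCR copies were not marked by molecular identifiers.

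The members and lists were chosen with earlier results of these data known. Every member is named, with up to 3 genes of each of 8 pathway lists, taken by the smallest unadjusted p; DLD3, COX3, ATP6 and ATP8 were added after their values were seen. Copies per complex are textbook values. A hydrophobic segment is a mean Kyte-Doolittle hydropathy of at least 1.6 in any 19-residue window of the translated reference. Shared sequence was counted in words of 28 bases. Sequences come from RefSeq R64. Python 3.11.15, NumPy 2.4.6, pandas 2.3.3, SciPy 1.17.1, Biopython 1.88 and matplotlib 3.10.9 were used.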

Additional observations from a re-analysis of the deposited data

How the results depend on the processing

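The alternatives were DESeq2, median-of-ratios factors, library totals only, no filter, a replicate block, thinning to the smallest total and leaving out each library. Under the first 6 of these all 30 tested members kept their direction and none was called; the number above 0 stayed at 23 and DESeq2 called 4 genes in all. With each library left out in turn, 0 to 1008 genes (39 without WT replicate 1) and 0 to 9 members were called, all 9 without WT replicate 2, and 18 to 25 members were above 0. The median over all members ranged from 0.04 to 0.29, that of the ATP synthase from 0.11 to 0.37 and that of complex III from 0.11 to 0.38, the lowest value being without WT replicate 1 each time.

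Leaving out 1 library turned the sign of some members or brought it to 0. The ranges were -0.00 to 0.20 (ATP3), -0.06 to 0.70 (ATP16), -0.02 to 0.29 (ATP5), -0.09 to 0.40 (ATP14), -0.07 to 0.76 (ATP19), -0.23 to 0.45 (QCR8), -0.03 to 0.50 (QCR9), -0.20 to 0.18 (CYC1), -0.37 to 0.19 (CYC7) and -0.14 to 0.04 (NDI1). The cause was not tested.

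The replicate numbers are not stated to mark a shared culture or day, and the deviations of same-numbered libraries correlated at 0.0805 over 4603 genes. With the number as a replicate block 0 genes and 0 members were called, and the median over all members was 0.26, that of the ATP synthase 0.27 and that of complex III 0.27. Depth limits STF1, CYB2, ATP18, CYC7, ATP19, ATP17 and ATP20, which had 36 to 113 counts in mutant replicate 2, and NDE2.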
